A study of Saccharomyces cerevisiae with 12 samples.

Results

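The glycerol metabolism genes of budding yeast (Saccharomyces cerevisiae) are the 7 genes GPD1, GPD2, GPP1, GPP2, STL1, GUT1 and GUT2. They were picked by systematic name from the 6571 genes of the deposited RNA table, and all 7 were found there and passed the filter on low values. Their RNA was compared between spt6-tSH2Δ cells (tSH2Δ), which carry an SPT6 allele without the tandem SH2 domain of Spt6, and wild-type cells (WT), with 3 libraries each. The labels give S288C as the strain of both genotypes and record no treatment. Cultures were grown in rich glucose medium (YPD) from an optical density of 0.2, for 4 h in one label and to a density of 1 in another, so tSH2Δ and WT cells need not have been harvested at the same density. Nothing in the labels tells whether the tSH2Δ strain is a single clone or whether each library had a culture of its own. The spread behind every p-value below may therefore be technical.

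Yeast makes glycerol from a glycolytic intermediate, dihydroxyacetone phosphate. A glycerol 3-phosphate dehydrogenase, Gpd1 or Gpd2, reduces it and thereby uses up NADH, and a phosphatase, Gpp1 or Gpp2, then releases glycerol. Glycerol is the main solute that yeast accumulates at high osmolarity, where the kinase Hog1 raises the transcription of GPD1, GPP2 and STL1, and its synthesis by Gpd2 and Gpp1 also serves to balance NADH when oxygen is short. Stl1 imports glycerol together with protons. The kinase Gut1 and the mitochondrial dehydrogenase Gut2 feed glycerol back into glycolysis and respiration, and their genes are repressed by glucose. Spt6 accompanies elongating RNA polymerase II, to which its tandem SH2 domain binds, and handles histones there.

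The libraries held 20483931 to 27069700 reads. Levels are given in RPKM, a read density that corrects for gene length and library size. Here they were divided by a size factor for each library, which sets the median gene to the same level (rescaled RPKM). In the RPKM as deposited the median gene stood 0.57 higher in tSH2Δ on the log2 scale, so each change below is relative to the median gene. Fold changes are of log2(rescaled RPKM + 1), which understates the change of low genes. SPT6 itself averaged 84.5 ± 0.814 in tSH2Δ and 180.1 ± 5.75 rescaled RPKM in WT (SD, n = 3), where the part of the gene that the mutant allele lacks is counted too. Replicates of a genotype correlated at 0.996 or more across genes, and replicate 3 stood further from the other libraries of its genotype than those did from each other, in tSH2Δ and in WT. The chi-square of reads per gene was 12.2 and 18.3 for the pairs with replicate 3 of tSH2Δ and 8.93 and 14.5 for those of WT, against 3.11 and 3.19 for the remaining pairs. With RNA from whole cultures, less RNA per cell and fewer cells of a state cannot be told apart.

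In tSH2Δ, 5 of the 7 genes were higher than in WT and 2 were lower. GPP2, STL1 and GUT2 rose to more than double their WT levels and GUT1 and GPD1 rose by less, while GPP1 and GPD2 fell. Changes of this kind were common. Of 6307 genes tested, 83.5% were called by limma at a Benjamini-Hochberg adjusted p under 0.05, with 41.6% higher and 41.9% lower in tSH2Δ. The median log2 fold change was 0.52 over the 7 genes and 0.01 over all genes tested. The rescaled values of tSH2Δ and WT did not overlap for any of the 7, which also held for 84.7% of the genes tested. With RPKM as deposited those of GPD2 did overlap.

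The genes that commit carbon to glycerol moved in opposite directions. GPD1 (YDL022W, chromosome IV, 411825 to 413000, in the RefSeq R64 annotation), the dehydrogenase gene of the osmotic response, had 178.8, 181.7 and 152.4 rescaled RPKM in tSH2Δ, against 136.9, 143.5 and 131.6 in WT. Replicate 3 of tSH2Δ was the lowest of its genotype and lay only a little above the highest WT library. The log2 fold change was 0.31 (SE 0.0691, limma adjusted p = 0.00286), and 0.39 without that library. It was 0.89 with RPKM as deposited and 0.70 after quantile normalization, so GPD1 was called higher under each scaling although the size varied. YDL023C, an open reading frame next to GPD1 in systematic numbering and on the opposite strand by its name, had deposited RPKM of 247.0, 240.4 and 192.1 in tSH2Δ and 125.5, 124.6 and 126.6 in WT. GPD1 was deposited at 220.8, 224.7 and 183.8 RPKM in tSH2Δ and 111.3, 116.6 and 109.1 in WT. These run close to YDL023C in every library. The sources used here do not give the strand setting of the authors' counting, and whether both IDs hold the same reads was not tested.

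GPD2 (YOL059W, chromosome XV, 217126 to 218448), the paralog linked to growth without oxygen, had 65.1, 67.1 and 66.1 rescaled RPKM in tSH2Δ, against 93.8, 100.8 and 102.2 in WT. All tSH2Δ libraries lay close together and below all WT libraries. The log2 fold change was -0.57 (SE 0.0411, limma adjusted p = 2.39e-06) and -0.50 after quantile normalization. This fall is relative to the median gene. With RPKM as deposited GPD2 averaged 81.0 ± 1.71 in tSH2Δ and 81.0 ± 4.27 in WT (SD, n = 3), a log2 fold change of 0.00 (limma adjusted p = 0.973).

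GPP1 (YIL053W, chromosome IX, 255115 to 255867), which encodes the main glycerol 3-phosphatase of unstressed cells, had the highest level of the 7 genes in either genotype. It had 410.7, 419.5 and 513.3 rescaled RPKM in tSH2Δ, against 1090, 1049 and 917.3 in WT. Replicate 3 was the highest in tSH2Δ and the lowest in WT, and even so the 2 groups stayed far apart. The log2 fold change was -1.19 (SE 0.0980, limma adjusted p = 5.78e-06). GPP1 was also called lower with RPKM as deposited (-0.61) and after quantile normalization (-0.36), where the fall was smaller.

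GPP2 (YER062C, chromosome V, 279930 to 280682), the osmotically induced phosphatase gene, had the largest rise of the 7. It had 110.4, 139.5 and 185.5 rescaled RPKM in tSH2Δ, against 53.9, 51.7 and 46.9 in WT. All tSH2Δ libraries were above all WT libraries, but they differed among themselves, with a coefficient of variation of 26.1%, where the median over all genes tested was 3.66% in tSH2Δ. The log2 fold change was 1.47 (SE 0.161, limma adjusted p = 3.55e-05), and 1.27 without replicate 3 of tSH2Δ. With RPKM as deposited it was 2.04, and after quantile normalization 1.61. Gpp1 and Gpp2 are near-identical proteins, and the sources used here do not say how reads that match both genes were assigned, so the split between them is uncertain.

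**Figure D1:**
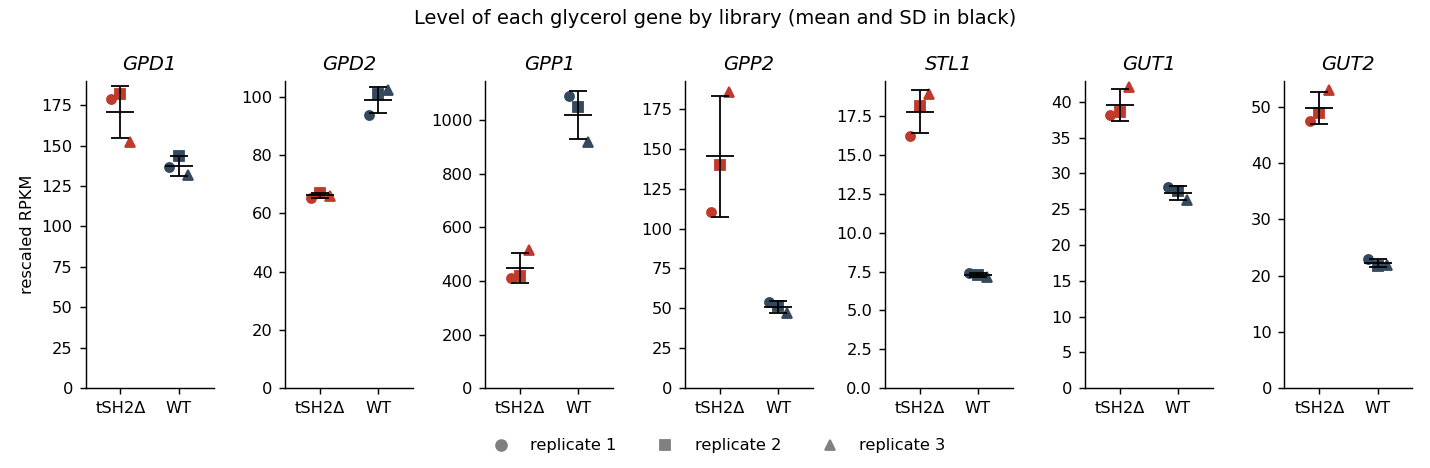
Rescaled RPKM of the 7 glycerol genes, 1 panel per gene with its own axis from 0, for the 3 tSH2Δ libraries (red) and the 3 WT libraries (dark blue). Symbols mark replicates, and black bars the mean and SD. GPP1 averaged 447.9 in tSH2Δ and 1019 in WT, GPP2 averaged 145.1 in tSH2Δ and 50.8 in WT, and no panel shows overlap of the genotypes.

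STL1 (YDR536W, chromosome IV, 1508005 to 1509714), the glycerol and proton symporter gene, was the least abundant of the 7, above only 12.4% of the genes tested in tSH2Δ and 7.31% in WT. It had 16.2, 18.2 and 18.9 rescaled RPKM in tSH2Δ, against 7.43, 7.28 and 7.13 in WT. These rest on 855 to 1056 reads per library in tSH2Δ and 207 to 244 in WT, the fewest of the 7. The genotypes were well separated, with WT values nearly equal. The log2 fold change was 1.18 (SE 0.0694, limma adjusted p = 7.36e-07). It was 1.71 with RPKM as deposited and 0.78 after quantile normalization.

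Both genes of glycerol use rose, GUT2 further than GUT1. GUT1 (YHL032C, chromosome VIII, 36379 to 38508), the glycerol kinase gene, had 38.1, 38.5 and 42.1 rescaled RPKM in tSH2Δ, against 28.1, 27.5 and 26.2 in WT. Its log2 fold change was 0.52 (SE 0.0515, limma adjusted p = 1.84e-05). It was called higher also with RPKM as deposited (1.09) and after quantile normalization (0.28). GUT2 (YIL155C, chromosome IX, 51759 to 53708), the gene of the mitochondrial glycerol 3-phosphate dehydrogenase, had 47.5, 49.0 and 53.0 rescaled RPKM in tSH2Δ, against 23.01, 21.67 and 21.98 in WT. Its log2 fold change was 1.13 (SE 0.0516, limma adjusted p = 1.80e-07), with 1.69 in the RPKM as deposited and 0.90 after quantile normalization. The coefficients of variation of GUT1 and GUT2 in tSH2Δ were 5.56% and 5.77%, above the median of 3.66% over all genes tested. In WT they were 3.46% and 3.16%, below the median of 4.27%.

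**Figure D2:**
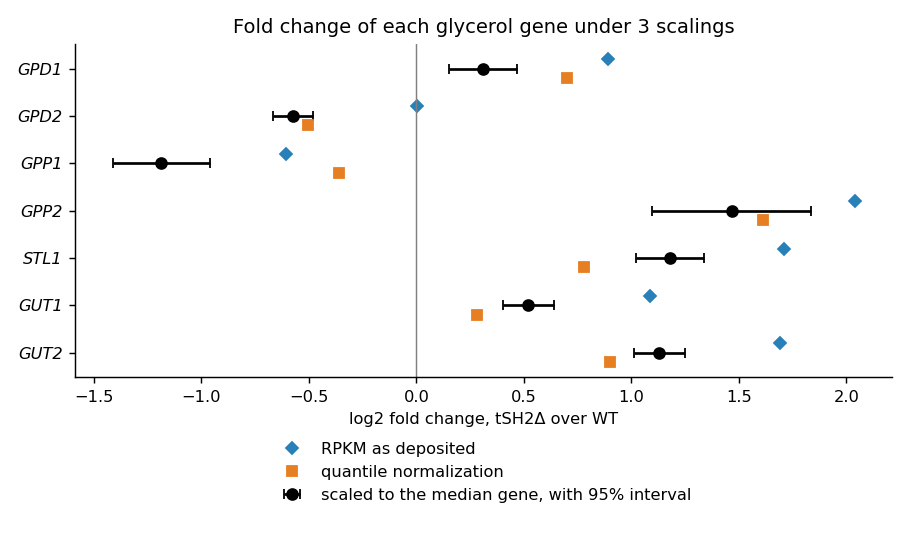
Log2 fold change (tSH2Δ over WT) of each gene on the horizontal axis, scaled to the median gene (black circles with 95% intervals from limma), with RPKM as deposited (blue diamonds) and after quantile normalization (orange squares). GPD1, GPP2, STL1, GUT1 and GUT2 lie above 0 and GPP1 below 0 under all 3 scalings, and GPD2 lies at 0.00 with RPKM as deposited.

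Of the 7 genes, then, 5 were called higher and 2 lower both after scaling to the median gene and after quantile normalization, where 81.1% of the genes tested were called, 40.0% higher and 41.1% lower. With RPKM as deposited 5 were called higher, 1 lower and 1 was not called, where 89.7% of the genes tested were called, 72.4% higher and 17.3% lower. The authors' deposited table of genes with changed abundance lists 6 of the 7. In the authors' deposited table the log2 ratios of tSH2Δ over WT were 2.07 for GPP2, 1.71 for STL1, 1.69 for GUT2, 1.09 for GUT1, 0.90 for GPD1 and -0.60 for GPP1, and GPD2 has no entry. Within that table the smallest log2 ratio is 0.50 in size and the largest DESeq2 adjusted p is 0.0495. GPD2, at 0.00 with RPKM as deposited, lies below that size. The log2 ratios there are of means of the same RPKM values. The table comes from the same libraries, so it is no independent measurement.

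The ratio of paralogs within a library is the same with and without the size factors, though quantile normalization, which shifts genes by level, moves it. GPP2 made up 21.2%, 25.0% and 26.5% of the summed RPKM of GPP1 and GPP2 in tSH2Δ, against 4.71%, 4.70% and 4.86% in WT. The share was thus several times larger in every tSH2Δ library than in any WT library. The log2 ratio of GPP2 over GPP1 averaged -1.65 ± 0.220 in tSH2Δ and -4.32 ± 0.0286 in WT (SD, n = 3), a difference of 2.67, or a 6.38-fold higher ratio (exact two-sided permutation test, p = 0.1). After quantile normalization, added for the ratios after seeing the data, the difference was 1.97. With 3 libraries against 3, 0.1 is the smallest p this test allows, here and for the other ratios and sums. GPP1 and GPP2 together had 521.1, 559.0 and 698.8 rescaled RPKM in tSH2Δ, against 1144, 1101 and 964.1 in WT. This sum does not depend on the split of reads between the copies if each shared read was counted once, which is not known. It was lower by a log2 difference of -0.86 (exact permutation p = 0.1), and by -0.28 with RPKM as deposited (exact permutation p = 0.2).

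Between the dehydrogenase genes the balance moved toward GPD1. GPD2 made up 26.7%, 27.0% and 30.2% of the summed RPKM of GPD1 and GPD2 in tSH2Δ, against 40.7%, 41.3% and 43.7% in WT. The log2 ratio of GPD2 over GPD1 averaged -1.37 ± 0.140 in tSH2Δ and -0.47 ± 0.0956 in WT (SD, n = 3), a difference of -0.89 (exact permutation p = 0.1), and -1.21 after quantile normalization. Their sum averaged 237.0 ± 16.3 in tSH2Δ and 236.2 ± 7.09 rescaled RPKM in WT (SD, n = 3; exact permutation p = 1). Relative to the median gene, the observed difference in this sum was thus smaller than the SD of either genotype. With 3 libraries each, this does not show that the sum was unchanged. With RPKM as deposited the sum was higher in tSH2Δ by 0.59 on the log2 scale (exact permutation p = 0.1). GUT2 made up 55.5%, 56.0% and 55.7% of the summed RPKM of GUT1 and GUT2 in tSH2Δ, against 45.1%, 44.0% and 45.6% in WT. GUT2 was thus the more abundant of the pair in tSH2Δ and the less abundant in WT, with a difference in log2 ratio of 0.63 (exact permutation p = 0.1), and 0.62 after quantile normalization.

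**Figure D3:**
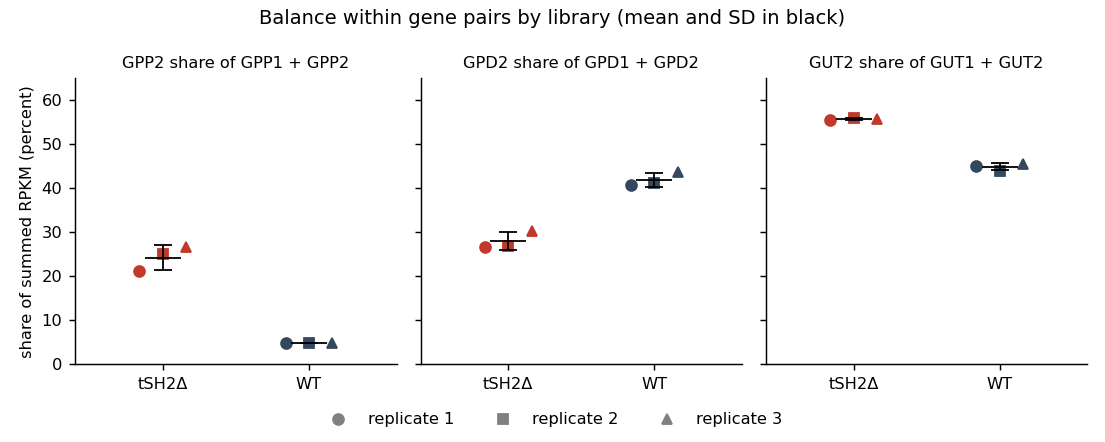
Share of GPP2, GPD2 and GUT2 in the summed RPKM of their pair (percent, vertical axis) in each tSH2Δ library (red) and WT library (dark blue), with the mean and SD in black. The GPP2 share averaged 24.2% in tSH2Δ and 4.76% in WT, the GPD2 share 28.0% in tSH2Δ and 41.9% in WT, and the GUT2 share 55.7% in tSH2Δ and 44.9% in WT.

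The order of the 7 genes by level differed between the genotypes at 2 places. In tSH2Δ the order of mean rescaled RPKM was GPP1 (447.9), GPD1 (170.9), GPP2 (145.1), GPD2 (66.1), GUT2 (49.8), GUT1 (39.6) and STL1 (17.8). Among the neighbours in that order GPD1 and GPP2 overlapped between libraries, GPP2 being above GPD1 in replicate 3, and the others did not overlap. In WT it was GPP1 (1019), GPD1 (137.3), GPD2 (98.9), GPP2 (50.8), GUT1 (27.3), GUT2 (22.2) and STL1 (7.28), with no overlap between neighbours. GPP2 stood above GPD2 in all tSH2Δ libraries and below it in all WT libraries, and its level exceeded that of 85.6% of the genes tested in tSH2Δ and 48.0% in WT.

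The genes whose profile over the 6 libraries was most like that of GPP2 were SNZ1, YLR184W and BAG7. Likeness was measured as the root mean square difference of the centred log2 values, which was 0.0775, 0.0837 and 0.0914. SNZ1, a vitamin B6 synthesis gene, had 54.1, 59.4 and 80.0 rescaled RPKM in tSH2Δ, against 21.9, 22.2 and 20.3 in WT, with replicate 3 of tSH2Δ again the highest. YLR184W had 1.59, 2.02 and 3.53 rescaled RPKM in tSH2Δ, against 0.150, 0.173 and 0.167 in WT. It passed the filter only through tSH2Δ, and at such levels the added 1 RPKM shapes its profile, so its likeness to GPP2 is not read further. The profiles closest to GPP1 were those of PMA1, which encodes the plasma membrane proton pump, and of the ribosomal protein genes RPP2A and RPS3, at 0.0228, 0.0335 and 0.0412. PMA1 had 1295, 1378 and 1605 rescaled RPKM in tSH2Δ, against 3497, 3346 and 2901 in WT. The libraries share their depth and scaling, so these are descriptions only.

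Other enzymes and transporters on the routes to and from glycerol went both ways. Of 14 such genes 5 were higher and 7 lower in tSH2Δ, with a median log2 fold change of -0.05. These shares lie near those of all genes tested, 41.6% higher and 41.9% lower. GCY1, a glycerol dehydrogenase gene, rose furthest, with 117.1, 118.1 and 132.4 rescaled RPKM in tSH2Δ, against 19.9, 19.9 and 21.3 in WT (log2 fold change 2.53, SE 0.0560, limma adjusted p = 8.97e-09). DAK2, which encodes a dihydroxyacetone kinase, rose by 0.96. TPI1, whose product triosephosphate isomerase draws dihydroxyacetone phosphate into glycolysis, fell the most relative to the median gene, with 642.9, 652.1 and 749.8 rescaled RPKM in tSH2Δ, against 1811, 1732 and 1443 in WT (log2 fold change -1.28, SE 0.0978, limma adjusted p = 3.58e-06). After quantile normalization TPI1 was still called lower, at -0.33, but YPR1, GUP2, GPT2 and SCT1 then fell further. GPT2, an acyltransferase gene that takes glycerol 3-phosphate into lipids, changed by -0.80 and is the 1 gene of the list on chromosome XI. FPS1, the glycerol export channel gene, named here after its values were seen, had 128.6, 123.8 and 122.8 rescaled RPKM in tSH2Δ, against 103.5, 102.9 and 103.7 in WT, a log2 fold change of 0.27 (limma adjusted p = 6.68e-05). With RPKM as deposited 10 of the 14 were higher and 4 lower, where 72.4% of all genes tested were higher and 17.3% lower.

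Of 20 genes of the Hog1 pathway, which signals high osmolarity, 10 were higher and 5 lower, against 41.6% higher and 41.9% lower over all genes tested, and the median log2 fold change was 0.10. SSK1, the response regulator gene of the Sln1 branch, rose by 1.09 and the membrane anchor gene OPY2 by 0.93. The stress transcription factor gene MSN4, on chromosome XI, fell by 0.89 and the osmosensor gene HKR1 by 0.47, and HKR1 stood at 0.10 and was not called with RPKM as deposited. HOG1 itself, named after its values were seen, had 221.3, 220.2 and 208.3 rescaled RPKM in tSH2Δ, against 239.8, 239.2 and 241.4 in WT, a log2 fold change of -0.15 that was 0.43 with RPKM as deposited and 0.39 after quantile normalization. With RPKM as deposited 18 of the 20 were higher and 1 lower, against 72.4% and 17.3% of all genes tested.

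A selection of 9 genes induced by osmotic stress, which leaves out GPD1, GPP2 and STL1, was read as well, and all 9 were higher. Their median log2 fold change was 1.51, against 0.01 over all genes tested. They were higher under all 3 scalings, where the share of all genes called higher was 41.6% after scaling to the median gene, 72.4% with RPKM as deposited and 40.0% after quantile normalization. RTC3 rose the most, with 181.3, 193.9 and 229.0 rescaled RPKM in tSH2Δ, against 27.8, 27.1 and 27.2 in WT (log2 fold change 2.83, SE 0.0771, limma adjusted p = 1.75e-08). HOR7 had 1034, 1014 and 1164 rescaled RPKM in tSH2Δ, against 184.9, 182.6 and 149.2 in WT (log2 fold change 2.63, SE 0.0901, limma adjusted p = 4.24e-08). The sodium pump gene ENA1 had 2.28, 2.93 and 2.47 rescaled RPKM in tSH2Δ, against 0.318, 0.330 and 0.354 in WT. It passed the filter only through tSH2Δ and had to differ, which leaves 8 of 8. The list was chosen with earlier results of these data known, so this count is a description only. Most of these genes are also induced by other stresses.

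Of 10 genes that glucose represses, as it does GUT1 and GUT2, 6 were higher and 1 lower, against 41.6% and 41.9% of all genes tested, and the median log2 fold change was 0.77. The hexokinase gene HXK1 (3.22) and the alcohol dehydrogenase gene ADH2 (1.88) rose furthest, and the invertase gene SUC2 was lower (-0.93) under all 3 scalings. ADH2 had 51.8, 53.2 and 58.1 rescaled RPKM in tSH2Δ, against 14.03, 12.98 and 15.09 in WT. PCK1 and JEN1, on chromosome XI, and ACS1, on chromosome I, were not called. Without replicate 3 of WT 2 of the 10 were lower, after quantile normalization 5 were higher and 4 lower (all genes 40.0% and 41.1%), and with RPKM as deposited 9 were higher and 1 lower (all genes 72.4% and 17.3%). Of 9 regulators of glycerol use 6 were higher and 1 lower, against 41.6% and 41.9% of all genes tested. The median log2 fold change of the 9 was 0.43. The 6 were the activator genes ADR1, RDS2, INO2 (0.43) and INO4 (0.74) and the repressor genes MIG1 (0.86) and OPI1 (0.30). CAT8 (0.10) and REG1 (0.07) were not called. After quantile normalization CAT8 was called lower (-0.33) and REG1 higher (0.42). There 7 of the 9 were higher and 1 lower, against 40.0% and 41.1% of all genes tested. All 9 were higher with RPKM as deposited, against 72.4% of all genes tested. ADR1, an activator of GUT1 and ADH2, had 73.5, 80.1 and 81.5 rescaled RPKM in tSH2Δ, against 20.9, 20.2 and 21.7 in WT (log2 fold change 1.85, SE 0.0511, limma adjusted p = 1.78e-08). The activator gene RDS2 rose too, with 59.4, 59.9 and 59.4 rescaled RPKM in tSH2Δ, against 27.5, 26.3 and 27.8 in WT. SNF1, which encodes the kinase that lifts glucose repression, was at -0.14 (limma adjusted p = 0.0279), a call that was lost after quantile normalization, with replicate number as a block (limma adjusted p = 0.0627) and without either of replicates 2 and 3 of tSH2Δ or of WT, and at 0.44, called higher, with RPKM as deposited.

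**Figure D4:**
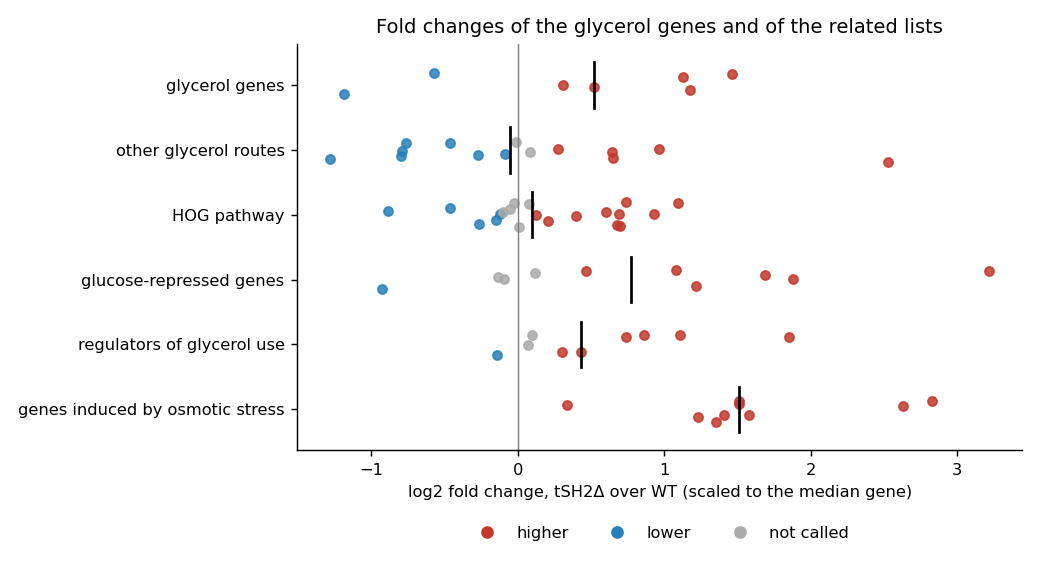
Log2 fold change (tSH2Δ over WT, scaled to the median gene) of each of the 7 glycerol genes and of the genes in 5 related lists, 1 point per gene, red where called higher, blue where called lower and grey where not called. Black lines are medians, which were 0.52 for the glycerol genes and 1.51 for the genes induced by osmotic stress, whose points are all red.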

How the data were processed

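RNA was sequenced from 3 tSH2Δ and 3 WT libraries, as single-end reads of 50 bases after rRNA depletion with a stranded kit, per the labels' protocols. The series also has 6 ATAC-seq libraries, not analysed here. Deposited by the authors were RPKM of 6571 genes. The tools named in the submitters' processing notes, with the build sacCer3, include Bowtie 1.1.2, HTSeq 0.6.1 and DESeq2, with no role for each. Per the file headers, the authors' deposited table of 2890 genes gives a log2 ratio of mean RPKM plus 1 and a DESeq2 adjusted p-value.

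Reads and library totals were recovered from the RPKM, the gene length and the step between values (100% whole within 0.01 reads). A row naming no gene (0.513% to 0.926% of reads) was left out. RPKM were divided by median-ratio size factors and tested as log2(RPKM + 1) with limma 3.58.1 in R 4.3.3 (eBayes with trend, two-sided, Benjamini-Hochberg over the 6307 genes that reached 1 RPKM in 3 or more of 6 libraries, threshold 0.05). The fit was also run on simulated data with far fewer changed genes than here, so that run does not bear on the scaling to the median gene. Ratios and sums used exact permutation tests (SciPy 1.17.1).

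The 7 genes and the 5 lists were chosen with earlier results of these data known. The rule for named genes takes all 7, SPT6, per list up to 2 called genes that rose most and up to 2 that fell most, the 3 profiles most like the largest rise and fall, and called neighbours. Of 6571 IDs 5897 matched RefSeq (R64), which gave names and coordinates.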

Additional observations from a re-analysis of the deposited data

How the results depend on the processing

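The 7 genes were refitted under 15 alternatives: RPKM as deposited, quantile normalization, pseudocounts of 0.1 and 5, no filter and a filter at 5 RPKM, voom on the whole reads, a replicate block, each library left out, and, added after seeing the data, chromosome XI genes left out. GPD1, GPP1, GPP2, STL1, GUT1 and GUT2 kept their direction and their call in all 15 and GPD2 in 14. With RPKM as deposited the count of lower genes among the 7 was 1, GPD2 stood at 0.0017 (log2), 4565 genes were higher and 1091 lower of all tested (main counts 2626 and 2640), and 55 and 6 genes of the 5 lists (main counts 36 and 14). There HKR1 stood at 0.10 and SNF1 at 0.44. The cause was not tested.

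The log2 difference in the sum of GPD1 and GPD2 lay between -0.033 and 0.061 with 1 library left out. With 1 library left out, 4953 to 5184 genes were called.

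The replicate numbers are not known to pair the libraries: deviations of same-numbered libraries correlated at -0.25, -0.09 and -0.28. With the replicate block 5054 genes were called, against 5266 without it, and among the 7 genes no call changed, while SNF1 lost its call. With libraries paired by number the exact sign-flip p was 0.25, the smallest it can give, for the ratios and the GPP sum, and 1 for the GPD sum.

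Depth limits STL1 most, with 207 to 244 reads per WT library.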

Other observations

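The genes that flank the 7 glycerol genes in the RefSeq annotation were read beside them. None of the 14 neighbours overlaps its glycerol gene. YDL023C has no coordinates in the annotation used, so whether it overlaps GPD1 could not be read. Of the 14 neighbours 6 were higher, 6 lower and 2 not called in tSH2Δ, against 41.6% and 41.9% of all genes tested. Around GPP2, which rose, both CEM1 (-0.21) and THO1 (-0.32) were lower relative to the median gene and higher with RPKM as deposited (0.35 and 0.26). Beside GPP1 the ribosomal protein gene RPL34B fell by 1.00 on the log2 scale (-0.13 and not called after quantile normalization), with 625.9, 640.4 and 748.8 rescaled RPKM in tSH2Δ, against 1304, 1324 and 1397 in WT. On the other side of GPP1, YIL054W rose by 0.90 from a low level. Beside STL1 the decarboxylase gene PAD1 rose by 0.94, with 48.6, 51.1 and 52.1 rescaled RPKM in tSH2Δ, against 24.4, 26.4 and 27.1 in WT, across a gap of 1187 bases. Beside GPD2 the arginine synthesis gene ARG1 rose by 1.25, and MAM3 by 0.26 (0.03 and not called after quantile normalization), while GPD2 fell. Beside GPD1, which rose, GPM2 (-0.67) and YDL022C-A (-1.14) were lower, GPM2 without a call in the RPKM as deposited (-0.16). YDL022C-A lies across a gap of 1768 bases and was near the floor. It had 2.09, 1.16 and 1.11 rescaled RPKM in tSH2Δ, against 3.57, 5.09 and 4.45 in WT. YDL023C, which is not among the 14, was higher like GPD1 (log2 fold change 0.26, limma adjusted p = 0.0146). Beside GUT1, RPL8A fell by 1.15 and GOS1 rose by 0.22, and beside GUT2, IMP21 rose by 0.15 (0.09 and not called after quantile normalization) and UBP7 was not called.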
